A study of Homo sapiens with 6 samples.

Results

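The replication-dependent histone genes of MDA-MB-231 cells were examined in polyA RNA after silencing of the kinase NEK2. A row of the gene table counted as a member when 1 of its symbols begins with HIST1H, HIST2H, HIST3H or HIST4H, which gave 67 of 74852 rows and 73 histone symbols. In 6 of these rows the annotation joins more than 1 histone gene. The mean over the 6 libraries was at least 10 normalized counts for 59 of the 67 members, among 18717 rows of the whole table that were tested. MDA-MB-231 is a human triple-negative breast cancer cell line with a mesenchymal phenotype. All cells were transfected 2 times, the si-CTRL group (3 libraries) with a non-targeting control pool of siRNAs and the si-NEK2 group (3 libraries) with a pool against NEK2, and per the labels were harvested 24 h after the second round (the study's methods give a longer interval after transfection). The cells are 1 line, and whether the 3 libraries of a group come from separate cultures is not said, so that p-values measure the spread between these libraries, which may be technical. The si-CTRL labels refer to other sample records and the si-NEK2 labels do not, and it is not said whether both groups were prepared in 1 batch.

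Replication-dependent histone genes supply the core histones H2A, H2B, H3 and H4, which form the nucleosome, and the linker histone H1, which binds the DNA that enters and leaves it. They lie in clusters, have no introns in their usual form, and are expressed mainly in S phase, when new chromatin is assembled. Their mRNAs usually end just after a short stem-loop that is bound by SLBP, and carry no polyA tail; a number of these genes also give longer or spliced mRNAs that end at an ordinary polyadenylation signal. Because the libraries were made from polyA RNA, the values below are those of the histone RNA that such a preparation retains, with or without a tail. In bulk RNA, a change in the number of cells in S phase and a change in histone RNA per cell cannot be told apart.

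The 3′ ends of the members are shown first, since the members differ in them. A stem-loop of 6 base pairs and a loop of 4 bases was found in GENCODE 29 transcripts (GRCh38) of 33 of the 73 symbols, in 6 different sequences. For 33 of the 40 other symbols every annotated transcript stops at the stop codon, so that no 3′ end could be searched. The sequences below belong to members called higher or lower; the 16 bases of the stem-loop are in capitals, with 5 bases on each side in lower case.
HIST1H2AC (chr6:26124669-26124684, plus strand): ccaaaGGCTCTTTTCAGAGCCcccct
HIST1H2BD (chr6:26158587-26158602, plus strand): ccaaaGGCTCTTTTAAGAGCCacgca
HIST1H2BC (chr6:26123472-26123487, minus strand): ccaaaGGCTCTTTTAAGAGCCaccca
HIST1H3E (chr6:26225596-26225611, plus strand): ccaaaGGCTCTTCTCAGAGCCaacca
HIST1H3H (chr6:27810516-27810531, plus strand): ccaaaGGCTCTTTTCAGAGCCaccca
HIST1H4H (chr6:26285131-26285146, minus strand): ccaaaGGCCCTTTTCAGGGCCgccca
HIST1H4J (chr6:27824459-27824474, plus strand): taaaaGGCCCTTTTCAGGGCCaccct

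The most frequent form, read in HIST1H2AC and HIST1H3H, was found in 17 symbols, and the form read in HIST1H2BD and HIST1H2BC in 5. The 8 H4 symbols with a stem-loop had 1 of 2 forms that were found in no other class, of which the one read in HIST1H4H and HIST1H4J was found in 5 symbols. HIST1H4H rose and HIST1H4J fell after NEK2 silencing, so that members of opposite direction carry the same 16 bases.

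For some members the annotation also holds a transcript that runs past the stem-loop, or leaves it out by splicing, and ends near a polyadenylation hexamer. A member was put in this class when a transcript went at least 100 bases beyond the stem-loop, or lacked it, and had a hexamer in its last 60 bases. The ends of 4 such transcripts are given because their genes were among those that rose; the hexamer is in capitals.
HIST1H2AC (chr6:26139088-26139093, plus strand): tgaggtAATAAAaggtaatgcaaa
HIST1H2BD (chr6:26171325-26171330, plus strand): ataattAATAAAatctgcggagaa
HIST1H2BJ (chr6:27125912-27125917, minus strand): taaatgAATAAAgtaatattcctc
HIST1H3E (chr6:26227452-26227457, plus strand): atgtaaAATAAAagattactgaac

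In HIST1H2AC the hexamer lies 1099 transcript bases after the end of the stem-loop, in a second exon, and in HIST1H3E 1840 bases after it. The polyadenylated transcripts of HIST1H2BD (789 bases) and HIST1H2BJ (950 bases) have 2 exons each and hold no stem-loop.

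NEK2 itself had 3702, 3323 and 3290 normalized counts in si-CTRL replicates 1 to 3 and 284, 362 and 388 in si-NEK2 replicates 1 to 3, so that 10% was left. Library depth lay between 52625492 and 87454509 reads assigned to genes, and 1 read was worth 0.818 to 1.25 normalized counts. Of the markers of this cell line, VIM, ZEB1 and CD44 were high in all libraries, with ZEB1 and CD44 lower in si-NEK2 (log2 fold change -0.82 and -0.76, the latter -0.58 without si-CTRL replicate 1). CDH1, ESR1 and PGR stayed at or below 15.2 normalized counts, and GATA3 lay between 287 and 542. PTPRC and PECAM1, markers of leukocytes and endothelium, had at most 25.4 normalized counts.

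Histone members were more often higher than lower after NEK2 silencing. The thresholds of the study were used, and a gene was called where limma gave an unadjusted p-value up to 0.05 together with a 1.5-fold change or more. Of 59 members tested 13 were called higher (22%; 8.23% of all genes tested) and 2 were called lower (3.39%; 14.3% of all genes), 15 in all (25.4%; 22.5% of all genes). With Benjamini-Hochberg adjusted p-values, calls of at least 1.5-fold came to 12 higher (7.47% of all genes) and 1 lower (13.1% of all genes). At any fold, 15 members were higher (21.8% of all genes) and 2 lower (21.3% of all genes) at an adjusted p of at most 0.05. The log2 fold change was above 0 in 42 members (71.2%; 51% of all genes), and its median was 0.26, beside 0.01 over all genes tested. The groups did not overlap in 21 members that were higher (35.6%; 28.2% of all genes) and in 5 that were lower (8.47%; 26.9% of all genes). With libraries scaled to equal totals the median was 0.13 for the members and -0.11 for all genes, and 8 members were called higher.

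**Figure D1:**
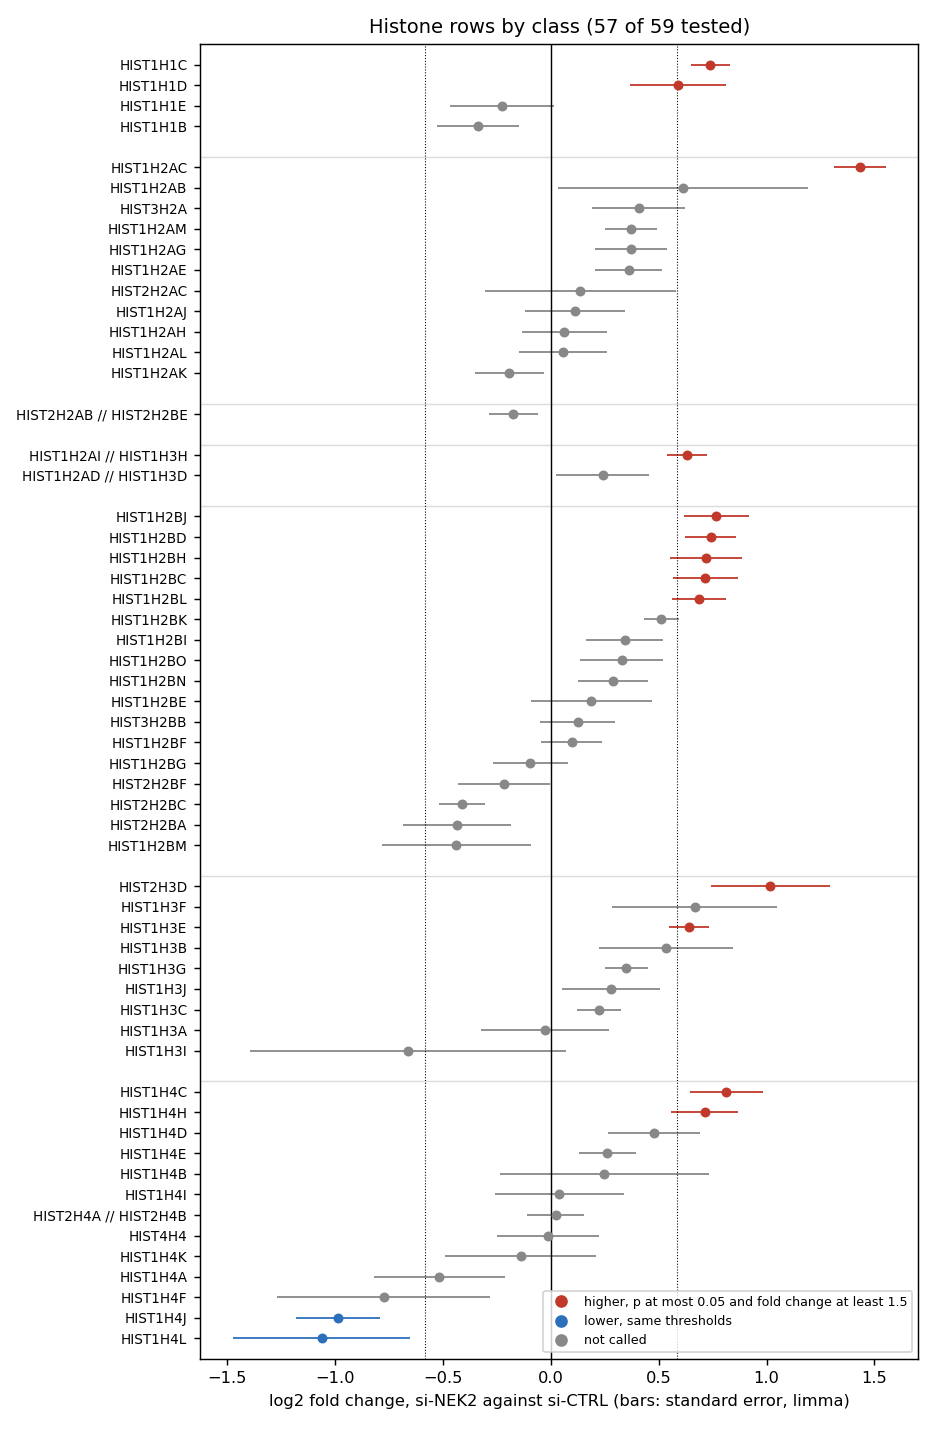
Log2 fold change of 57 of the 59 tested histone rows, si-NEK2 against si-CTRL, by histone class; points are limma estimates from 3 libraries per group, bars their standard error, dotted lines a 1.5-fold change. HIST1H2AC stands at 1.43 and most called members between 0.59 and 1.02, whereas H4 rows spread from -1.06 to 0.81; 2 rows at 0 in some libraries are left out.

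The 12 members with most reads were taken first. They held 73.6% of the members' normalized counts in si-CTRL and 78% in si-NEK2. Normalized counts are not divided by length, so that they compare libraries and not genes. HIST1H2AC, an H2A gene of the large chromosome 6 cluster (chromosome 6 from 26124366 to 26139336, hg19), had 1306, 1592 and 1884 normalized counts in si-CTRL and 4264, 4330 and 4175 in si-NEK2. The lowest si-NEK2 library was above the highest si-CTRL library by more than the range of either group. Its mean rose from 1594 ± 289 to 4256 ± 77.7 (SD, n = 3), by 1.43 on the log2 scale in limma (standard error 0.12, adjusted p = 4.99e-05), and it stayed between 1.30 and 1.56 over all alternatives. An unnamed row within the locus of HIST1H2AC (chromosome 6 from 26129222 to 26132360, mean of 47.4 normalized counts) had a log2 fold change of 1.73.

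HIST1H2BK, an H2B gene, had the most reads of all members, 3145, 3312 and 3547 normalized counts in si-CTRL and 5185, 4661 and 4432 in si-NEK2. All si-NEK2 values lay above all si-CTRL values, and the log2 fold change of 0.51 (limma, standard error 0.08, adjusted p = 0.0012) was under the 1.5-fold threshold. HIST1H1C, a linker histone gene, had 1561, 1864 and 1858 normalized counts in si-CTRL and 2989, 2749 and 3059 in si-NEK2. It rose without overlap of the groups (log2 fold change 0.74, standard error 0.09, adjusted p = 0.000314). The GENCODE 29 transcripts of HIST1H2BK and HIST1H1C stop at the stop codon and tell nothing of their 3′ ends.

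HIST1H2BD, a further H2B gene, had 735, 852 and 932 normalized counts in si-CTRL and 1563, 1417 and 1229 in si-NEK2, a rise of 0.74 on the log2 scale (standard error 0.12, adjusted p = 0.00127). The row of HIST1H2AI and HIST1H3H, an H2A and an H3 gene that the annotation joins, had 657, 614 and 660 against 1056, 1035 and 907 (log2 fold change 0.63, standard error 0.09, adjusted p = 0.000724). HIST1H3E, an H3 gene, had 359, 349 and 351 against 572, 568 and 512 (log2 fold change 0.64, standard error 0.09, adjusted p = 0.000767). In all 3 rows every si-NEK2 library was above every si-CTRL library. The calls of the last 2 rows were lost under upper quartile scaling (0.57 for each, log2) and equal total scaling (0.50 and 0.51), in which they remained just under 1.5-fold.

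HIST1H2BJ, an H2B gene with a locus of 25517 bases, had 254, 350 and 375 normalized counts in si-CTRL and 572, 512 and 561 in si-NEK2. The groups did not overlap, and it rose by 0.77 (log2, standard error 0.15, adjusted p = 0.0034). The 5 other rows of the 12 were not called. HIST1H3G, with values of 1185 to 1369 in si-CTRL and 1442 to 1782 in si-NEK2, had a log2 fold change of 0.35 (adjusted p = 0.0194). HIST1H3C (501 to 532 against 533 to 642) stood at 0.22 and HIST1H2AM (436 to 550 against 558 to 673) at 0.37, both with no overlap of the groups. The row of HIST2H4A and HIST2H4B, 2 copies of an H4 gene, overlapped fully, with 467, 425 and 518 against 438, 436 and 565 (log2 fold change 0.02), and its sign turned with the scaling. HIST2H2BC, an H2B pseudogene, was the exception in direction among the 12, with 1072, 1095 and 1109 in si-CTRL and 943, 822 and 715 in si-NEK2. All its si-NEK2 values were below all si-CTRL values (log2 fold change -0.41, standard error 0.11, adjusted p = 0.0134), at less than 1.5-fold.

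**Figure D2:**
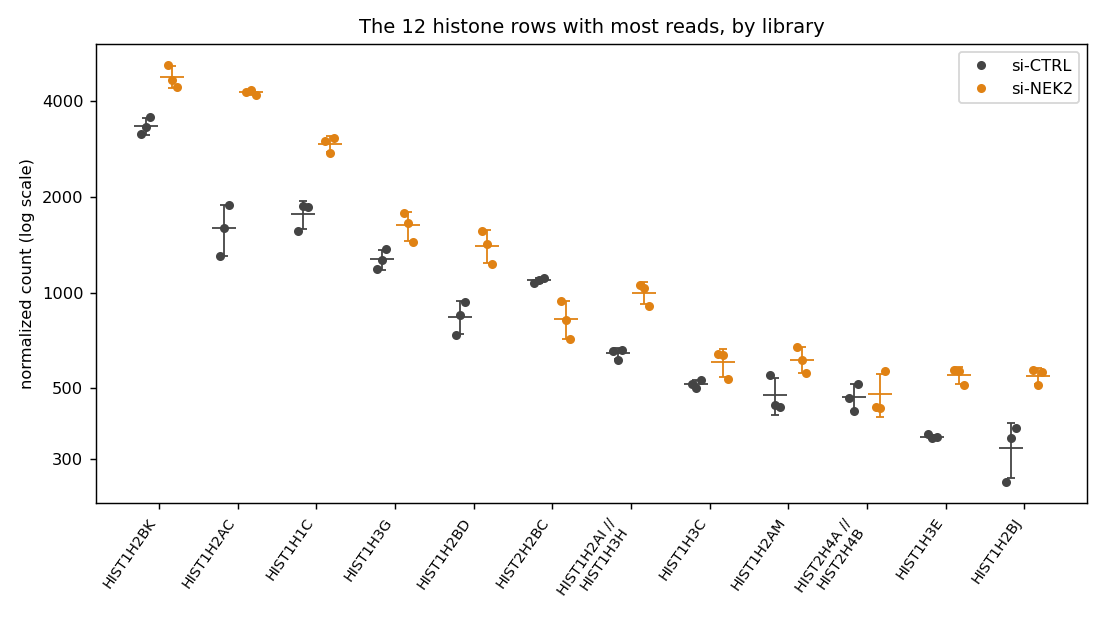
Normalized counts (log axis) of the 12 histone rows with most reads in each of the 3 si-CTRL and 3 si-NEK2 libraries; points are libraries, horizontal marks means and bars SD. Groups are apart for 11 of the 12 rows, with HIST2H2BC the only one of these lower in si-NEK2. Of all genes tested, 28.2% are apart and higher and 26.9% apart and lower.

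Summed over all members, normalized counts were 15747, 17480 and 18486 in si-CTRL and 26838, 25121 and 23397 in si-NEK2. The sum thus went from 17237 ± 1386 to 25119 ± 1721 (SD, n = 3), 1.46 times as much, with no overlap of the libraries. Members took 0.0263% of all normalized counts in si-CTRL and 0.0351% in si-NEK2. HIST1H2BK, HIST1H2AC and HIST1H1C held 38.8% of the members' sum in si-CTRL and 47.6% in si-NEK2, and without them the ratio was 1.25.

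Of 4 linker histone H1 rows tested, 2 were called higher (8.23% of all genes tested) and none lower (14.3% of all genes), with a median of 0.18. HIST1H1C rose as described, and HIST1H1D (88.7, 168 and 135 normalized counts in si-CTRL; 204, 202 and 168 in si-NEK2) passed the unadjusted threshold with overlapping groups. Its log2 fold change of 0.59 (limma, standard error 0.22, adjusted p = 0.0607) was the least firm of the 13, with the call kept in 8 of 17 alternatives. Without si-CTRL replicate 1 it stood at 0.34, and without si-NEK2 replicate 1 or 2 at 0.54 and 0.55, none of which was called. HIST1H1E (log2 fold change -0.23) and HIST1H1B (-0.34) were not called, the latter with 50.4 to 58.7 normalized counts in si-CTRL and 38.4 to 47.5 in si-NEK2. HIST1H1A stayed under the mean of 10 with 7.5, 6.78 and 9.51 in si-CTRL and 3.27, 1.81 and 6.40 in si-NEK2, and no fold change was taken. HIST1H1T, the testis form, was at 0 in 3 libraries and never above 2.13.

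Of 12 H2A rows tested HIST1H2AC alone was called, near the share of all genes tested that were higher (8.23%). The counts by class leave out the rows that join H2A with H3 (2 tested, 1 higher) or H2A with H2B (1 tested, not called). The median log2 fold change of the H2A rows was 0.37, and 11 of 12 were above 0. These 11 include the row of HIST2H2AA3 and HIST2H2AA4, which was at 0 in some libraries of both groups (3.08, standard error 2.81). HIST1H2AG (0.37), HIST1H2AE (0.36) and HIST3H2A (0.41) were close to that median, with adjusted p-values of 0.105, 0.0906 and 0.163. HIST1H2AK (-0.19) was the exception.

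Of 17 H2B rows tested 5 were called, all higher (8.23% of all genes tested), with a median of 0.29. Besides HIST1H2BD and HIST1H2BJ these were HIST1H2BC, HIST1H2BH and HIST1H2BL, which were named after their values were seen. HIST1H2BC had 129, 115 and 145 normalized counts in si-CTRL and 241, 185 and 217 in si-NEK2 (log2 fold change 0.72, standard error 0.15, adjusted p = 0.00498). HIST1H2BH had 78.7, 86.2 and 112 against 161, 146 and 146 (0.72, standard error 0.17, adjusted p = 0.0081). HIST1H2BL had 125, 144 and 147 against 226, 211 and 234 (0.69, standard error 0.13, adjusted p = 0.0025). Groups did not overlap in any of these rows, and the call of HIST1H2BL was lost with equal totals (0.56). At the other end of the class stood HIST1H2BM (-0.44) and the pseudogene HIST2H2BA (-0.44), neither of them called.

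Among 10 H3 rows 2 were called, HIST1H3E and HIST2H3D, both higher (8.23% of all genes tested), and the median was 0.37. HIST2H3D had 33.7, 46.5 and 68.4 normalized counts in si-CTRL and 122, 93.1 and 81.1 in si-NEK2. It has few reads, but its groups did not overlap and it was called under all 17 alternatives (log2 fold change 1.02, standard error 0.27, adjusted p = 0.0161; 0.78 to 1.27). HIST1H3F (0.67) and HIST1H3B (0.54) had large standard errors of 0.38 and 0.31 and were not called.

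H4 was the only class with calls in both directions, with 2 of 13 rows higher (8.23% of all genes tested) and 2 lower (14.3% of all genes). Its median was 0.02. HIST1H4C had 41.2, 48.4 and 42.8 normalized counts in si-CTRL and 77.7, 77.7 and 79.0 in si-NEK2, a rise of 0.81 (standard error 0.17, adjusted p = 0.00494). HIST1H4H had 131, 169 and 179 against 230, 273 and 281 (0.71, standard error 0.15, adjusted p = 0.00567), and fell just under the threshold without si-CTRL replicate 1 (0.58) and with equal totals (0.58). HIST1H4J fell without overlap, from 77.5, 96.9 and 96.0 to 48.3, 49.7 and 37.3. A log2 fold change of -0.99 (limma, standard error 0.19, adjusted p = 0.00363) was called under all 17 alternatives. HIST1H4L, with 17.5, 19.4 and 17.1 in si-CTRL and 14.7, 5.42 and 6.40 in si-NEK2, also fell at the unadjusted threshold (log2 fold change -1.06, limma, standard error 0.41, adjusted p = 0.0657). It rests on few reads, and its call was lost in 6 of 16 alternatives, among them leaving out si-CTRL replicate 2 (-1.01) or 3 (-1.10) or si-NEK2 replicate 2 (-0.81) or 3 (-0.92). These fold changes are on the log2(value + 1) scale, and edgeR and DESeq2 on recovered reads gave -0.99 and -1.01 for HIST1H4L.

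HIST1H4K was just inside the mean of 10 (12.5, 8.72 and 11.4 against 10.6, 9.94 and 8.54; log2 fold change -0.14) and HIST1H2BB just outside (2.50, 11.6 and 5.70 against 10.6, 9.94 and 12.8). Besides HIST1H2BB, HIST1H1A and HIST1H1T, 5 members were below the mean of 10. HIST3H3, HIST1H2AA, HIST1H2BA and the pseudogene HIST1H2APS1 were listed at 0 in all libraries, and HIST1H4G had 1 read in si-CTRL replicate 1. HIST3H3, HIST1H2AA and HIST1H2BA encode testis forms. A value of 0 allows up to 3 reads, that is 2.46 to 3.75 normalized counts by library, for counting error only.

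A further 2 rows, each of which joins a pair of near-identical copies, were at 0 in some libraries and high in others. The row of HIST2H2AA3 and HIST2H2AA4 had 0, 391 and 0 in si-CTRL and 517, 459 and 0 in si-NEK2, and that of HIST2H3A and HIST2H3C 0, 58.1 and 0 against 133, 0 and 0. Such steps run across both groups and leave wide errors (log2 fold change 3.08 with a standard error of 2.81, and 0.39 with 2.13). How reads on identical copies were counted is not given in the sources used here. Without both rows 13 members were higher and 2 lower, the median was 0.25 and the ratio of sums 1.45. Coding sequences of 1 histone class are much alike, so that reads may have been split or dropped between other members too.

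Members were then grouped by the extent of the deposited locus, since a locus in the FAST DB annotation (hg19) can hold more than the short stem-loop mRNA. Of 21 tested members with a locus longer than 1500 bases 7 were higher and none lower, with a median log2 fold change of 0.35. Of 38 with a locus of up to 1500 bases 6 were higher and 2 lower, with a median of 0.24. Beside these counts, 8.23% of all genes tested were higher and 14.3% lower. Summed normalized counts of the long loci were 9907, 10703 and 11697 in si-CTRL and 17834, 16762 and 15872 in si-NEK2, 1.56 times as much. Those of the short loci were 5839, 6777 and 6789 against 9004, 8360 and 7525, 1.28 times as much. Both sums had no overlap between groups. When HIST1H1C and the row of HIST2H2AA3 and HIST2H2AA4 were left out of the short loci, a choice made after their values were seen, the sums were 4278, 4521 and 4931 against 5498, 5151 and 4466, which overlap (ratio 1.10).

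The same grouping was made by the GENCODE 29 transcripts. A polyadenylated form was found for 19 tested members, of which 8 were higher and none lower. Their median was 0.39, the value of the row of HIST2H3A and HIST2H3C (standard error 2.13), and their ratio of sums 1.55. No such form was found for 40 tested members, of which 5 were higher and 2 lower, with a median of 0.13 and a ratio of 1.37. Of all genes tested, 8.23% were higher and 14.3% lower. For 26 of these 40 the annotated transcripts all stop at the stop codon (3 higher, 1 lower, median 0.18), and a polyadenylated form could not have been found. The 14 others had 2 higher and 1 lower, with a median of 0.11. They include HIST3H2BB, HIST4H4, HIST1H2BG, HIST1H2BF and HIST1H4I. Transcripts of these members run 212 to 1917 bases past the stem-loop, without a hexamer in the last 60 bases. None of them was called (log2 fold changes of -0.09 to 0.12). For 14 members with both a long locus and an annotated polyadenylated form, 7 were higher, the median was 0.51 and the ratio of sums 1.70. HIST1H1C, HIST1H1D, HIST1H2BL, HIST2H3D and HIST1H4C are the 5 members called higher without an annotated polyadenylated form, of which HIST1H1C, HIST1H1D and HIST2H3D have transcripts that stop at the stop codon. Counts per member differed between these groups as well. In si-CTRL the 19 members with an annotated polyadenylated form summed to 8386 normalized counts on average. The 48 members without, tested or not, summed to a similar 8851. Of 30 members with a mean of 100 or more 11 were higher and none lower, with a median of 0.37 and a ratio of sums of 1.49. Of 29 with a mean of 10 to 100, 2 were higher (8.23% of all genes tested) and 2 lower (14.3% of all genes). Their median was 0.06 and their ratio 1.06. Neither the difference between the groups of members nor the part of depth in it was tested.

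**Figure D3:**
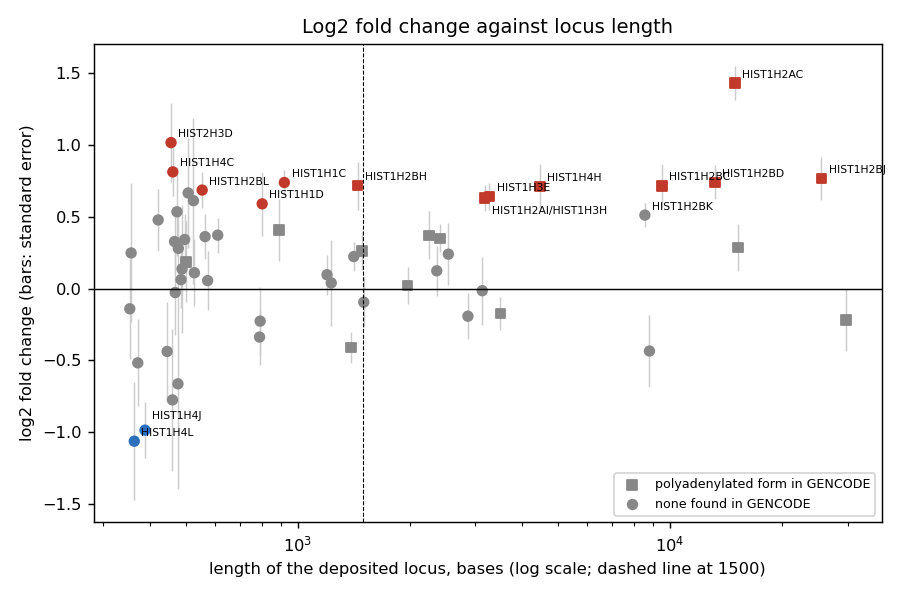
Log2 fold change of 57 tested histone rows against the length of the deposited locus in bases (log axis, dashed line at 1500); squares are members with a polyadenylated form in GENCODE 29, circles those without, red called higher, blue called lower, bars standard errors. The 7 called members to the right of the line are all higher and all squares, and both called lower lie among the shortest loci.

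By position (hg19), the largest cluster on chromosome 6, from 26017067 to 26285766, held 9 of the 13 members that rose among 27 tested, none that fell, and a median of 0.36. The cluster from 27775212 to 27861669 held 15 tested members with 2 called higher, both of the members called lower, and a median of 0.06. Of the 5 members between 27075060 and 27115346 HIST1H2BJ alone was called. The chromosome 1 cluster from 149754245 to 149859515 had 8 tested members with 1 higher, HIST2H3D. The remaining tested members, 2 at chromosome 1 from 228612539 to 228648171, 1 on the same chromosome from 120906033 and 1 on chromosome 12, were not called. For comparison with the counts by position, 8.23% of all genes tested were higher and 14.3% lower. Differences between clusters were not tested.

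Promoters of members were read from RefSeq (GRCh38.p14), from 250 bases before the start to 50 after it, for the 60 symbols that matched. TATAAA or its complement TTTATA was found in 66.7% of these promoters and in 11.5% of 35116 promoters of all genes, and CCAAT or ATTGG in 83.3% and 34.6%. The octamer ATTTGCAT or ATGCAAAT was found in 35% and 1.77%, with shares of 68.8% for H2A, 69.2% for H2B, 8.33% for H3 and none for H1 or H4. The 1 H3 promoter with the octamer, that of HIST1H3D, has the same window as that of the H2A gene HIST1H2AD, so that this window was counted for both classes. Windows of neighbouring H2A and H2B genes on opposite strands can overlap. An octamer can then count for both classes, as for HIST1H2AG and HIST1H2BJ, so that the H2A and H2B shares are not independent. The 60 windows hold 58 different sequences. CCAAT or ATTGG was present in 23.1% of H4 promoters and in all others. HIST1H2AC, which rose most, has all 3 motifs, HIST1H1C has CCAAT only, and HIST1H4J, which fell, has the TATA letters only. Other members go otherwise. HIST1H4H, which rose, has none of the 3 motifs. HIST1H4D (log2 fold change 0.48) has the TATA letters only and HIST1H2AM (0.37) all 3, and neither was called. A link between motifs and direction was not tested. The promoters of HIST1H2AC, HIST1H1C and HIST1H4J are shown with the motifs in capitals.
HIST1H2AC (H2AC6, chr6:26123922-26124221, plus strand): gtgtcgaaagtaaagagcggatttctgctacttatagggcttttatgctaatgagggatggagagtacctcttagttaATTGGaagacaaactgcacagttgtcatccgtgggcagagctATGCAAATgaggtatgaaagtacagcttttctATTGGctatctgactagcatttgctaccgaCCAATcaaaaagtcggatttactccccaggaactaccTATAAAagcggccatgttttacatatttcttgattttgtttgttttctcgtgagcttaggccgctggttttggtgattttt
HIST1H1C (H1-2, chr6:26056421-26056720, minus strand): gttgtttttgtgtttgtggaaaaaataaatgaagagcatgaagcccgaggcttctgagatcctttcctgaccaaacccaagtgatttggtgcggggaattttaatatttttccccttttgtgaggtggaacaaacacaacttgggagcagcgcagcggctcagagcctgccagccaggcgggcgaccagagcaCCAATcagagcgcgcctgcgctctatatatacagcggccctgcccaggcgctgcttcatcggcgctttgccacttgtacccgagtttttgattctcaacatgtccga
HIST1H4J (H4C11, chr6:27823842-27824141, plus strand): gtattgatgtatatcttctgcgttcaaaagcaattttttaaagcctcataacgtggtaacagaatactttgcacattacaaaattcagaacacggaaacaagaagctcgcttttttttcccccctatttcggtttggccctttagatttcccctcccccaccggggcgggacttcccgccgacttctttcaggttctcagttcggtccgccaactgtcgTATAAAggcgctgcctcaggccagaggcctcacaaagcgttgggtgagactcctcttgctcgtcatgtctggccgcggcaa

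Many H2A and H2B genes start head to head, and in 8 pairs the promoter windows of neighbours on opposite strands overlapped. Only the 60 symbols with a promoter could be paired. The called member HIST1H2BC was not among them. Its locus (minus strand) ends at 26124158, and that of HIST1H2AC (plus strand) starts at 26124366 (hg19). HIST1H2AH, next to HIST1H2BK, was missing as well. In 7 of the 8 pairs both rows were tested. The row that joins HIST1H2AI with HIST1H3H rose by 0.63 and HIST1H2BL by 0.69, but the part of HIST1H2AI in that row cannot be told. HIST1H2BJ rose by 0.77 beside 0.37 for HIST1H2AG, which was not called. The difference within that pair was not tested. In the other 5 pairs neither row was called, with log2 fold changes of 0.33 and 0.37 for HIST1H2BO and HIST1H2AM, 0.12 and 0.41 for HIST3H2BB and HIST3H2A, and opposite signs in HIST1H2BN and HIST1H2AK (0.29 and -0.19), HIST2H2AC and the row of HIST2H2BE (0.14 and -0.17), and HIST1H2BM and HIST1H2AJ (-0.44 and 0.11). The windows of the first 2 pairs are given because they hold the called members of these 8 pairs, with the motifs in capitals.
HIST1H2AI (H2AC13, chr6:27807923-27808222, plus strand; HIST1H2BL starts from the other strand): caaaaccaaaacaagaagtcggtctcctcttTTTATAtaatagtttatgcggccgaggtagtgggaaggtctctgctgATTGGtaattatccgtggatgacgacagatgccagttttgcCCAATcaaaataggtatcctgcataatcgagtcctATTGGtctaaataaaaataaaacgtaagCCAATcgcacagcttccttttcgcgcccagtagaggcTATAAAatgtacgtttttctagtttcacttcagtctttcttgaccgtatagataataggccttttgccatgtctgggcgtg
HIST1H2AG (H2AC11, chr6:27132793-27133092, plus strand; HIST1H2BJ starts from the other strand): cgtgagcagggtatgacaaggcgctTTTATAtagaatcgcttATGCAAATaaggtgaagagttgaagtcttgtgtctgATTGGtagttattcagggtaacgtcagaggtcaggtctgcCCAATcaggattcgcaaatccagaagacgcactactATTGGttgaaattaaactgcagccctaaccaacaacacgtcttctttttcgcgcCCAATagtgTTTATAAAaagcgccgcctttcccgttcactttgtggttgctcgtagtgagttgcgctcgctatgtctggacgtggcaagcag

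The kit marks strand, but whether strand was used in the counting is not given in the sources used here, so that reads of overlapping members cannot be told apart with certainty. HIST1H4I lies within the locus of HIST1H2BK and had a log2 fold change of 0.04 beside 0.51, and HIST2H2AC lies within the row of HIST2H2AB and HIST2H2BE.

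Libraries of 1 group differed in the level of the members. The median log2 deviation of the members from their group mean was -0.15, 0.00 and 0.14 in si-CTRL replicates 1, 2 and 3 and 0.09, 0.02 and -0.14 in si-NEK2 replicates 1, 2 and 3. That of all genes lay between -0.01 and 0.01, but scaling by size factors keeps it near 0. Other genes of like depth were not compared. In both groups the library with fewest reads (si-CTRL replicate 1, si-NEK2 replicate 3) was lowest. RNAs without a polyA tail, such as RMRP, RPPH1 and small Cajal body RNAs, deviated in the same libraries, by -0.32 in si-CTRL replicate 1 and -0.21 in si-NEK2 replicate 3. Without si-CTRL replicate 1 the members' median was 0.19 and 11 of the 13 higher calls were kept, and without si-NEK2 replicate 3 it was 0.33 with 13 of 13. The part of depth in the result was not tested.

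Levels of RNAs that carry no tail were then set beside the members. Summed over the 15 of 19 listed that are in the table, normalized counts were 1621, 1768 and 2048 in si-CTRL and 2044, 1987 and 1684 in si-NEK2, which overlap (ratio 1.05). Of 11 tested none was higher, and TERC, the RNA of telomerase, was lower, with 110, 89.1 and 120 against 69.6, 37.1 and 68.3 (log2 fold change -0.90, standard error 0.26, adjusted p = 0.022). Their median was -0.04, and 0.18 with quantile normalization. SCARNA13 shares its row with its host gene SNHG10 (log2 fold change 0.34), and this row held much of the sum, with 676, 750 and 873 against 1070, 1028 and 825. Without it the sums were 945, 1018 and 1175 against 974, 960 and 859, which also overlap, and the ratio turned to 0.89 (0.8899). The sum of all members did not overlap between groups. That of the members with a mean of 10 to 100 did, with 1160, 1475 and 1528 against 1669, 1528 and 1216 (ratio 1.06). Whether carry-over of RNA without a tail has a part in the members' values was not tested.

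Replication-independent histones, whose mRNAs carry an ordinary polyA tail and are made outside S phase as well, gave 0 higher and 1 lower of 12 tested at the thresholds of the study, with a median of 0.28 that was 0.15 with equal totals and 0.02 (0.0248) with quantile normalization. At any fold, 5 were higher (21.8% of all genes) and 3 lower (21.3% of all genes) at an adjusted p of at most 0.05. At the thresholds of the study, 8.23% of all genes tested were higher and 14.3% lower, for comparison with this and the other lists. H1FX, a linker histone, had 3225, 4315 and 4714 normalized counts in si-CTRL and 3211, 2583 and 1830 in si-NEK2 (log2 fold change -0.70, standard error 0.20, adjusted p = 0.0218), and was not called without si-NEK2 replicate 3 (-0.49). H2AFX, which is known to have both a stem-loop and a polyadenylated mRNA, had 3123, 3215 and 3902 against 5136, 4678 and 3100, with overlapping groups (0.31, adjusted p = 0.191). H2AFZ overlapped as well, with 18446, 30558 and 28636 in si-CTRL and 27807, 27269 and 25815 in si-NEK2 (log2 fold change 0.09, negative without si-CTRL replicate 1 and under equal total and quantile scaling). No member of this list rose by 1.5-fold, H2AFV standing nearest at 0.58.

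Of 8 genes that act on histone gene transcription, none was called higher and CCNE1 alone lower, with a median of 0.22 that was 0.09 with equal totals and 0.13 with quantile normalization. CCNE1, cyclin E, which with CDK2 activates the histone coactivator NPAT, had 446, 356 and 415 normalized counts in si-CTRL and 62.2, 52.4 and 81.1 in si-NEK2. It fell by 2.64 on the log2 scale (standard error 0.18, adjusted p = 1.92e-05), in all libraries. NPAT had 2801, 2684 and 2628 against 3564, 3904 and 3740 (log2 fold change 0.47, adjusted p = 0.000759), under 1.5-fold, and CCNE2 stood at 0.46.

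Of 21 genes of histone mRNA 3′ end formation and turnover, 2 were higher (8.23% of all genes tested) and none lower (14.3% of all genes). The median of 0.04 turned negative (-0.09) with equal totals. ERI1, the exonuclease that binds the histone stem-loop and takes part in the decay of the mRNA, had 1025, 1223 and 1349 normalized counts in si-CTRL and 1980, 2091 and 2010 in si-NEK2 (log2 fold change 0.77, standard error 0.10, adjusted p = 0.000529). MIF4GD, which joins SLBP to the translation machinery, had 915, 1125 and 1175 against 1684, 1716 and 1706 (0.68, standard error 0.10, adjusted p = 0.000895), and 0.57, under the threshold, without si-CTRL replicate 1. SLBP itself had 3312, 2785 and 3051 against 4114, 3891 and 3877, with no overlap and a log2 fold change of 0.38 (adjusted p = 0.00476) that did not reach 1.5-fold. At any fold, 7 of the list were higher (21.8% of all genes) and 4 lower (21.3% of all genes) at an adjusted p of at most 0.05. The lowest was CDK9 at -0.54.

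Among 22 histone chaperones, which carry histones to DNA, ASF1A alone was called, with 3167, 4180 and 4461 normalized counts in si-CTRL and 6071, 6295 and 6079 in si-NEK2. It rose by 0.66 (log2, standard error 0.12, adjusted p = 0.00223), and without si-CTRL replicate 1 stood at 0.51 and was not called. At any fold, 9 chaperones were higher (21.8% of all genes) and 3 lower (21.3% of all genes) at an adjusted p of at most 0.05. NASP stood at 0.50 and NAP1L1 at -0.54.

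Markers of S phase gave no common direction. Of 25 tested none was called higher and 2 lower. The median was -0.01, and it was -0.14 with equal totals and -0.15 with quantile normalization. At any fold, 8 were higher (21.8% of all genes) and 7 lower (21.3% of all genes) at an adjusted p of at most 0.05. UHRF1, which keeps DNA methylation through replication and shares its row with MIR4747, fell from 16658, 15062 and 15165 to 5379, 4792 and 4573 normalized counts, by 1.67 on the log2 scale (standard error 0.08, adjusted p = 4.31e-06). PCNA stood at 0.23, MCM3 at -0.36, MCM5 at -0.39, TK1 at 0.42 and CCNA2 at 0.56, all under 1.5-fold.

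**Figure D4:**
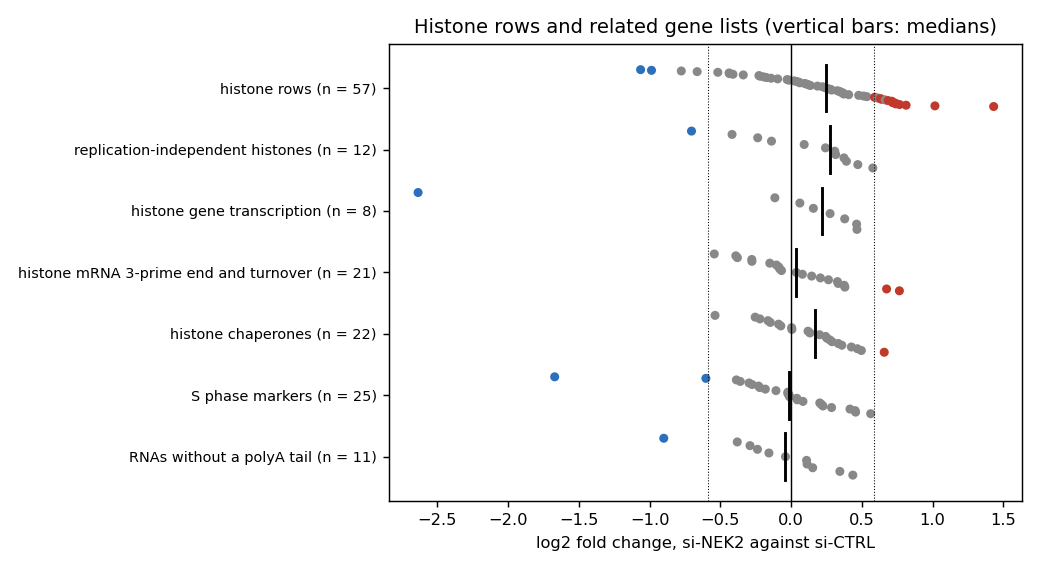
Log2 fold change (x axis, si-NEK2 against si-CTRL) of 57 histone rows and of the genes of 6 related lists; each point is a gene, red called higher, blue called lower, black bars medians, dotted lines a 1.5-fold change. Medians lie between -0.04 and 0.28, and calls of at least 1.5-fold higher are seen in the histone rows, the 3′ end list and the chaperones.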

How the data were processed

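PolyA RNA of MDA-MB-231 cells was sequenced in 3 si-CTRL and 3 si-NEK2 libraries made with the TruSeq Stranded mRNA kit. The submitters' processing notes name FastQC, Picard, SAMtools, STAR 2.4.0, DESeq2 and hg19, and the study's methods name FAST DB annotation; the counting tool, the use of strand and the handling of reads with several matches are not given in the sources used here. The authors deposited 1 gene signal per library, in which a gene's reads have been scaled by the size factor that DESeq2 gave that library; replicates were kept apart. Values were whole multiples of 1 read (within 0.01 of a read) in 100% of cases, which gave back the reads.

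Rows with a mean of 10 or more over the 6 libraries (18717) were tested in limma 3.58.1 (R 4.3.3) on log2(value + 1), using lmFit and eBayes (trend by intensity), with Benjamini-Hochberg adjustment over all rows. Genes were called at an unadjusted p-value up to 0.05 and a 1.5-fold change or more. Fits were tested on simulated data first. The other settings were a pseudocount of 0.1 or 5, all rows tested or only those with a mean of 50 or more, scaling by upper quartile, to equal totals or by quantiles, no intensity trend in eBayes, a block for the replicate number, edgeR 4.0.16 and DESeq2 1.42.0 on recovered reads, each library left out, adjusted p-values and a 2-fold change or more. Alternatives without the 2 rows at 0 in some libraries, and the libraries and the row left out for RNAs without a polyA tail, were chosen after seeing the data.

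The members and the gene lists were chosen with earlier results of these data known. The text names the 12 members with the highest mean, the 5 called members with the largest fold change in each direction, the members next to the mean of 10, the called genes of the lists, SLBP, NPAT, H2AFX, H2AFZ and NEK2; other members named with values, such as HIST1H4H, HIST1H2BL, HIST1H2BC, HIST1H2BH and HIST1H1D, were chosen after their values were seen. The 73 histone symbols all matched GENCODE 29 (GRCh38), used for transcripts and stem-loops, and 60 matched RefSeq promoters (GRCh38.p14); coordinates of the deposited loci are hg19 and were not converted. 1 called gene of the S phase markers is not reported here. NELFE and COBRA1 of the 3′ end list are not among the symbols of the table. At this depth 3 reads equal 2.46 to 3.75 normalized counts.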

Additional observations from a re-analysis of the deposited data

How the results depend on the processing

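Among the 17 other fits, 8 members were called higher (HIST1H4C, HIST1H2AC, HIST1H2BD, HIST1H2BH, HIST1H2BC, HIST1H2BJ, HIST2H3D and HIST1H1C) and HIST1H4J lower in every one. At 2-fold or more, 1637 of the 18717 genes tested were called. Among them were 3 of the 59 members tested (2 higher, 1 lower), a smaller share than that of all genes. They also held 1 S phase marker, and 0 each of the replication-independent histones and the 3′ end list. With equal totals, 8 members were higher, their median was 0.13 (0.1341) and the ratio of their sums 1.33. Without the 3 members with most reads the ratio was 1.25. For RNAs without a polyA tail the ratio of 1.05 turned to 0.89 (0.8899) without the row of SCARNA13 and SNHG10. A mean of at least 50, quantile normalization, DESeq2 and adjusted p-values each left 1 member lower. The number lower was 1 to 4 when single libraries were left out, with 4 without si-NEK2 replicate 1. Leaving out single libraries gave 1 to 2 replication-independent histones and 1 to 3 S phase markers. The row of HIST2H4A and HIST2H4B turned to -0.04 (-0.0436) with upper quartile scaling, -0.11 with equal totals, -0.05 without si-CTRL replicate 2 and -0.10 without si-NEK2 replicate 3, in a range of -0.10 to 0.09 (0.0943) over the libraries left out. HIST1H4K turned to 0.13 with quantile normalization. H2AFZ turned to -0.04 (-0.0355) with equal totals, -0.04 (-0.0353) with quantile normalization and -0.13 without si-CTRL replicate 1, in a range of -0.13 to 0.23 over the libraries left out. The cause of these changes was not tested.

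Same-numbered libraries did not deviate together (correlations of -0.09, 0.05 and -0.15), and the labels do not say that a number is shared by a culture or a day. With the replicate block, 15 members were called, 13 higher and 2 lower, among 4084 genes, and all 13 higher calls were kept. Depth limits members with a mean of 10 to 100 normalized counts, for which standard errors reached 0.73 on the log2 scale outside the row of HIST2H3A and HIST2H3C.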
